A study of Mus musculus with 47 samples.

Results

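Nr0b1 and Pim2 are X-linked genes of mouse pluripotent cells, and both were followed here allele by allele in single induced pluripotent stem cells (iPSCs). They are 2 of the 13947 genes in the allelic count table and 2 of its 422 X-linked genes, of which 383 had a count in at least 1 cell. They were selected on measured values, because the remaining allele had more counts in cells with a single X than the same allele had in cells with both X chromosomes. Differences between those classes on each allele and in the sum of alleles are therefore descriptions of what chose them.

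The 47 cells came from 1 plate of iPSCs, which the labels describe as grown in mouse embryonic stem cell medium with serum, LIF and ascorbic acid. For its iPSC controls the study's methods describe later passages with neither doxycycline nor ascorbic acid, and which applied to this plate is not given in the sources used here. Their cells of origin carried 1 X from Musculus (Mus) and 1 from Castaneus (Cast), because the study crossed Mus females bearing an X-linked GFP reporter to Cast males and, unless stated otherwise, reprogrammed the embryonic fibroblasts by lentiviral delivery of inducible Oct4, Sox2, Klf4 and Myc. The deposited columns of the Mus allele end in X129, and the methods take the SNPs of the Cast allele from CAST_EiJ. The labels name neither the line or clone behind this plate nor an age of the animals, and all 47 cells share 1 label, iPSCs. The names of the deposited columns divide them into 23 X-Mus X-Cast cells with both X chromosomes, 15 X-Cast O-Mus cells and 9 X-Mus O-Cast cells, where O stands for the lost X. They are called XX, XO-Cast and XO-Mus cells below, so that the suffix names the X that remains. The classes rest on X-linked allelic counts, and when Nr0b1 and Pim2 were left out of that calculation all 47 cells kept the class of their column name.

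Cells held 71682 to 216451 allelic counts, with class medians of 164722 in XX, 168885 in XO-Cast and 179357 in XO-Mus cells. The shallowest cell was an XO-Mus cell. The iPSC label was met by its markers, with counts for 8 of 8 genes and a summed normalized count of 21.3 to 100.3 per cell. Of the fibroblast markers, 6 of 8 were in the table and 3 of these, Col1a2, Postn and Lum, were at 0 in all cells, and the summed normalized count was 0 to 9.14, most of it from Vim. Of the markers of primed or early lineage cells, 9 of 14 were in the table, Fgf5, Gata6 and Cdx2 were at 0, and the sum was 0 to 11.7. The cells of a plate do not replicate a class, so no test was made between classes and every interval below covers counting error only.

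Nr0b1, also called Dax1, encodes an orphan nuclear receptor that lacks the usual DNA-binding domain and acts mostly by repressing other transcription factors, including steroidogenic nuclear receptors and, in embryonic stem cells, Oct4. Pim2 encodes a serine/threonine kinase that is active as soon as it is made, phosphorylates regulators of survival and cap-dependent translation, and belongs to a family that LIF and STAT3 signalling induces. Both genes are known to be expressed in naive mouse pluripotent cells.

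On GRCm38, Nr0b1 lies on the forward strand at chrX:86191764-86195947 and has 1 coding transcript with 2 exons. Pim2 lies on the same strand at chrX:7878262-7883432, with 2 coding transcripts of 6 exons each. The first exons of these start at 7878302 and 7878319, after the annotated gene start that is used below. The counts are summed over the gene, so exons and transcripts were not separated. The bases just before each annotated gene start are shown so that the letters next to each start can be read beside the values. They are from RefSeq, build GRCm38.p6, forward strand, at chrX:86191525-86191763 for Nr0b1 and chrX:7878056-7878261 for Pim2, with chosen motif matches in capitals.
Nr0b1 promoter: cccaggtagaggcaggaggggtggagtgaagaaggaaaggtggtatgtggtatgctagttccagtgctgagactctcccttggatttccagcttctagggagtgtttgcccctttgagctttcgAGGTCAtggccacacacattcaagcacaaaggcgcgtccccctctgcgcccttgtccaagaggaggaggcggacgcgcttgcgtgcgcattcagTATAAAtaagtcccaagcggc
Pim2 promoter: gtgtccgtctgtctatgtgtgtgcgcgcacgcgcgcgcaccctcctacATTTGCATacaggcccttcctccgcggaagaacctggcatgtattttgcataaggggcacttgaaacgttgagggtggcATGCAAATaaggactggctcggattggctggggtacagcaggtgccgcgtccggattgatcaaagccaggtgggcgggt

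The capitals in the Nr0b1 window mark the nuclear receptor core motif AGGTCA, at -115 from the annotated gene start, and the TATA box TATAAA at -21. The capitals in the Pim2 window mark 2 matches to the octamer ATGCAAAT, the motif of Oct factors, on the reverse strand at -158 and on the forward strand at -79. Both strands were searched for 6 motifs picked after the windows had been seen, the octamer, the core motif, the TATA box, the STAT motif TTCNNNGAA, the GC box GGGCGG and the CCAAT box, and none of the matches shown overlap. Among the same window of 32851 promoters, 13.5% held AGGTCA and 12.04% held TATAAA in the 239 bases used for Nr0b1. In the 206 bases used for Pim2, 1.36% held the octamer and 0.0791% held it 2 times or more. The Pim2 window also had 1 GC box and 1 CCAAT box, found in 25.8% and 29.3% of promoters, and the windows held 10 CpG dinucleotides for Nr0b1 and 15 for Pim2. The STAT motif matched in neither window. A match is a match of letters only, and none of the values below measure binding.

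The Cast allele of Nr0b1 was counted in 19 of 23 XX cells and in 15 of 15 XO-Cast cells. In counts per cell, it ranged from 0 to 106 with a median of 28 in XX cells. In XO-Cast cells it ranged from 38 to 311 with a median of 124. No XO-Cast cell was without Nr0b1, and the XX cells reached only into the lower part of that range.

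Counts were then divided by the allelic total of the cell and multiplied by 10000, here called the normalized count. For the Cast allele of Nr0b1 its lowest, median and highest values were 0, 1.61 and 6.34 in XX cells and 1.76, 7.38 and 17.2 in XO-Cast cells. All 15 XO-Cast cells were above the XX median and 9 were above the highest XX cell, while the other 6 lay within the XX range. The means were 2.16 and 7.69, a 3.56-fold higher level, or 1.83 on the log2 scale. The sums behind them were 821 counts (95% Poisson interval 766 to 879) and 1924 counts (1839 to 2012).

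The Mus allele of Nr0b1 had a smaller difference. Its normalized count was 0, 2.14 and 8.22 at the lowest, median and highest of the 23 XX cells and 0, 4.63 and 17.4 in the 9 XO-Mus cells. Of the 9 XO-Mus cells, 6 were above the XX median and 3 of these above the highest XX cell, while the other 6 of the class lay within the XX range. Mean levels were 2.76 and 5.52, 2.00-fold higher or 1.00 on the log2 scale, from 1037 counts (974.8 to 1102) and 816 counts (761 to 874). A single XO-Mus cell held 314 of these 816 counts, 38.5%, and without it the log2 fold was 0.54. The log2 fold was 0.54 over plate rows A to D, with 6 XO-Mus cells, and 1.59 over rows E to H, with 3. Those 3 include the same cell, and the others had normalized counts of 1.81 and 4.63, beside an XX mean of 2.64 in those rows. The part of plate position in the fold was not tested.

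**Figure D1:**
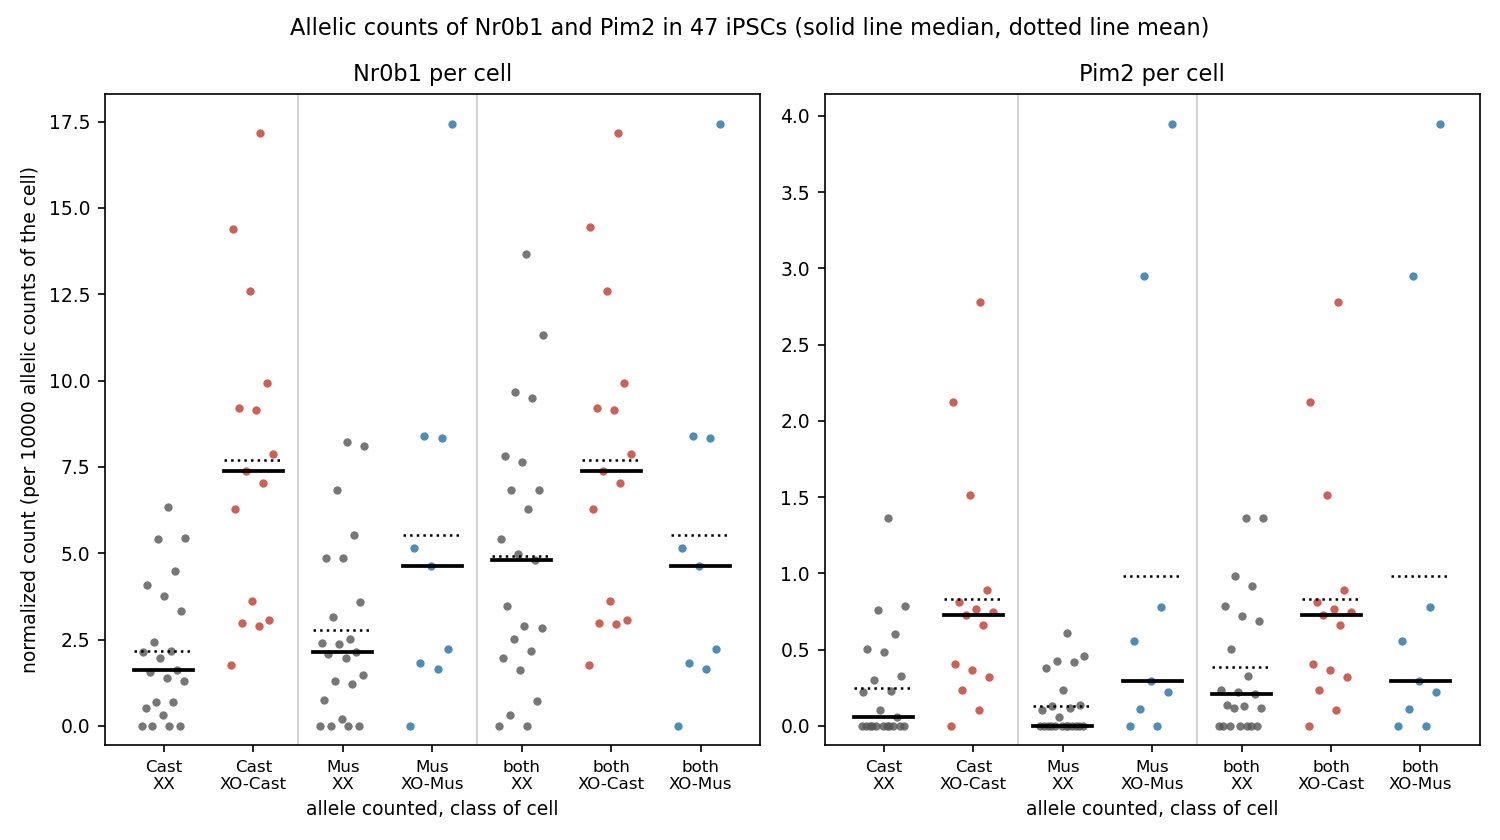
Normalized counts of Nr0b1 (left) and Pim2 (right) in each cell, per 10000 allelic counts of the cell, for the Cast allele, the Mus allele and their sum in each class. Points are cells, solid lines medians and dotted lines means, and for both genes the remaining allele of single-X cells lies higher than the same allele in XX cells, with overlapping ranges.

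Pim2 had few counts. The Cast allele was counted in 12 of 23 XX cells, with at most 22 counts in a cell and a median of 1. In XO-Cast cells it was counted in 14 of 15, with at most 49 and a median of 10. Most XO-Cast cells thus held a Pim2 count where nearly as many XX cells lacked it as had it.

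Normalized counts of the Pim2 Cast allele were 0, 0.0598 and 1.36 at the lowest, median and highest in XX cells and 0, 0.730 and 2.78 in XO-Cast cells. Of the 15 XO-Cast cells, 14 were above the XX median but only 3 were above its highest cell. The means were 0.250 and 0.831, 3.33-fold higher or 1.73 on the log2 scale, from 94 counts (76.0 to 115) and 198 counts (171 to 228). The ratio of medians was 12.2, as the XX median rests on 1 count, and the log2 fold was 0.50 from the mean of the natural log of 1 plus the normalized count.

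The Pim2 Mus allele was counted in 11 of 23 XX cells, at most 8 times, and in 7 of 9 XO-Mus cells, at most 76 times. Its normalized counts were 0, 0 and 0.607 at the lowest, median and highest in the first class and 0, 0.295 and 3.95 in the second. In XO-Mus, 3 cells lay above every XX cell and the other 6 lay within their range. The means were 0.134 and 0.984, 7.35-fold higher or 2.88 on the log2 scale, from 50 counts (37.1 to 65.9) and 154 counts (131 to 180). Most of the 154 counts, 77.9%, came from 2 cells with 76 and 44 counts, and the log2 fold was 2.20 without the first of them and 0.57 from the log mean described for Cast. The cell with 76 counts of Pim2 had 0 counts of Nr0b1, and the cell with most Nr0b1 had 10 of Pim2.

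The lost allele had almost no counts. In XO-Cast cells, 2 counts of Mus Nr0b1, in 2 cells, stood beside the 1924 of Cast. Cast Nr0b1 in XO-Mus cells and the lost allele of Pim2 in both single-X classes had 0 counts, which allows up to 3 counts over a class (one-sided 95% limit).

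When the alleles were added, both genes lay above the median of their chromosome. Over 111 X-linked genes averaging 5 counts or more in the cells compared, the median log2 fold of the sum of alleles was -0.82 in XO-Cast against XX cells, and over 118 genes it was -0.84 in XO-Mus cells. Nr0b1 summed to a normalized count of 0, 4.81 and 13.7 at the lowest, median and highest in XX cells, where 21 of 23 cells had a count. The sum was 1.76, 7.38 and 17.2 in XO-Cast cells and 0, 4.63 and 17.4 in XO-Mus cells. Above the XX median lay 10 of 15 XO-Cast cells and 4 of 9 XO-Mus cells, and above its highest cell 2 and 1, so most cells of the 3 classes shared a range. Means were 4.92, 7.70 and 5.52, so the sum of Nr0b1 was 1.56-fold higher in XO-Cast cells (log2 0.64) and 1.12-fold higher in XO-Mus cells (log2 0.16). The second value changed sign with the summary and the cells used. It was -0.06 from medians over cells, -0.29 without the cell of 314 counts, -0.30 over plate rows A to D and 0.77 over rows E to H. Rows E to H hold that cell, and the other XO-Mus cells there, at 1.81 and 4.63, lay below their XX mean of 4.68.

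For Pim2 the sum was 0, 0.207 and 1.37 at the lowest, median and highest in XX cells, with a count in 16 of 23. It was 0, 0.730 and 2.78 in XO-Cast cells and 0, 0.295 and 3.95 in XO-Mus cells. Above the XX median lay 13 of 15 XO-Cast and 6 of 9 XO-Mus cells, and above its highest cell 3 and 2. The means of 0.383, 0.831 and 0.984 gave sums 2.17-fold higher in XO-Cast cells (log2 1.12) and 2.57-fold higher in XO-Mus cells (log2 1.36). The second log2 fold was 0.68 without the cell of 76 counts, 0.95 without that of 44 counts and 0.51 from medians over cells. Both cells were not left out together. The other XO-Mus cells had normalized counts of 0, 0, 0.112, 0.221, 0.295, 0.555 and 0.779, beside the XX mean of 0.383. The first log2 fold was 1.82 from medians. From the mean of the natural log of 1 plus the normalized count, the log2 folds were 0.37 in XO-Cast and 0.32 in XO-Mus cells.

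The order of X-linked genes by fold rests on the values that chose both genes and is a description only. Pim2 reached the minimum of 5 counts on each single allele through its single-X cells, since XX cells had a mean of 4.09 Cast and 2.17 Mus counts, so it could pass only by being higher there. For Nr0b1 those means were 35.7 and 45.1. On the Cast allele, both genes exceeded a log2 fold of 1, as did 7.87% of the 89 X-linked genes and 6.72% of all 2797 genes averaging 5 counts or more. Nr0b1 was rank 3 and Pim2 rank 4 there, below G6pdx, a pentose phosphate enzyme, at 1.96 and above Flna, an actin crosslinker, at 1.22. On the Mus allele, 4.71% of 85 X-linked genes and 8.83% of all 2253 exceeded 1. Pim2 was first and Nr0b1, just under 1, was rank 5, between Ofd1, a centriole gene, at 1.28 and the RNA helicase gene Ddx3x at 0.91. Among all genes, Nr0b1 was rank 32 and Pim2 rank 37 on the Cast allele, and they were ranks 200 and 6 on the Mus allele.

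In the sum of alleles, 1.8% of 111 X-linked genes exceeded a log2 fold of 1 in XO-Cast cells and 2.54% of 118 in XO-Mus cells, beside 6.79% and 8.64% of all genes. Pim2 was rank 2 in each, after Rpgr, a cilium gene, at 1.42 in the first and after Egfl6 at 1.63 in the second. Nr0b1 was rank 3, above G6pdx at 0.46, in the first and rank 11, between Irak1 at 0.21 and Hdac6 at 0.07, in the second. Both contrasts use the same 23 XX cells. Among all genes, most of them autosomal, Nr0b1 was rank 588 of 4125 and rank 1652 of 4084, and Pim2 ranks 226 and 174. For the sum, XX cells had a mean of 6.26 counts of Pim2, above the minimum.

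**Figure D2:**
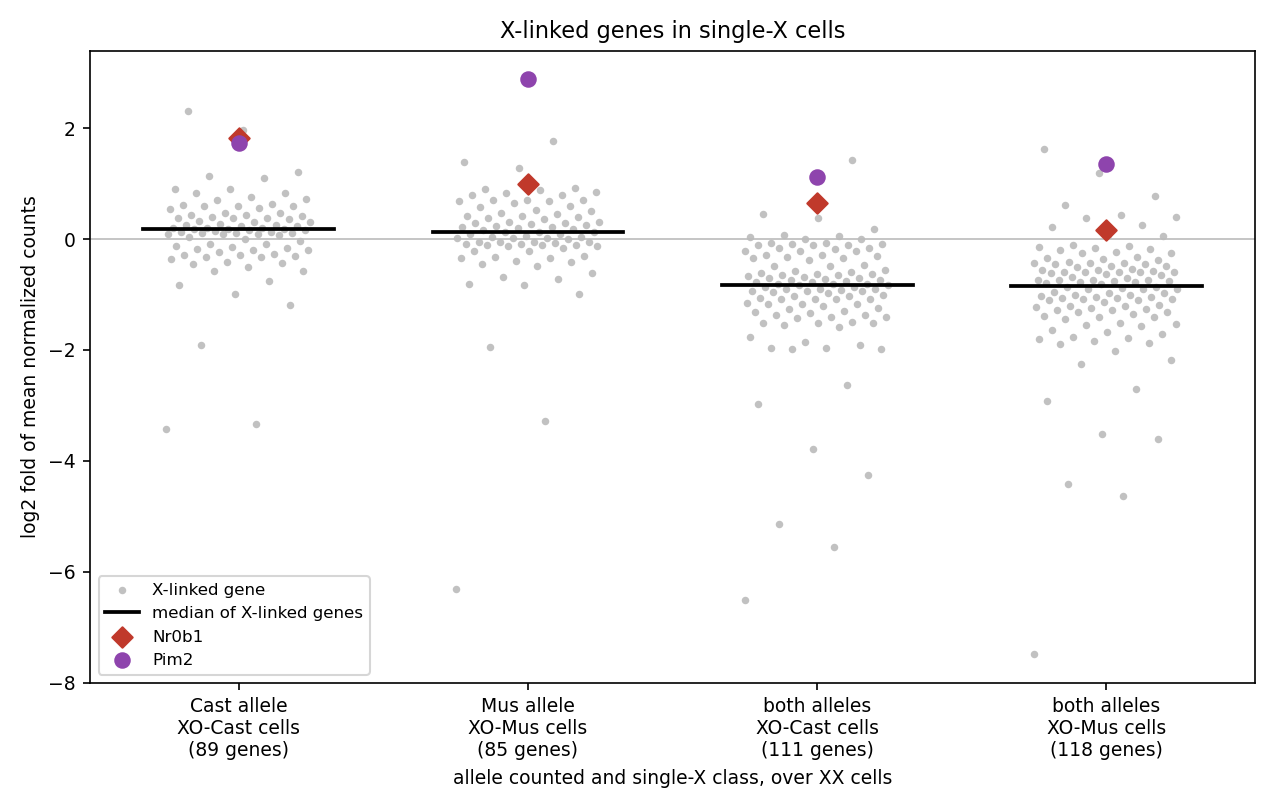
Log2 fold of the mean normalized count in single-X cells over XX cells, for the remaining allele and for both alleles, of X-linked genes averaging 5 counts or more. Grey points are genes, black lines their medians, and Nr0b1 and Pim2 lie above those medians in each of the 4 columns.

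Nr0b1 took 4.40% of all X-linked Mus counts in XO-Mus cells (95% Clopper-Pearson interval 4.11 to 4.71) against 2.54% in XX cells (2.39 to 2.69). Pim2 took 0.831% (0.705 to 0.972) against 0.122% (0.0908 to 0.161). In XO-Mus cells 1 cell held 38.5% of the Nr0b1 counts and another 49.4% of the Pim2 counts, which these intervals do not cover. On the Cast allele the share of Nr0b1 was 6.99% (6.69 to 7.29) in XO-Cast cells against 2.22% (2.07 to 2.37) in XX cells, and that of Pim2 was 0.719% (0.623 to 0.826) in XO-Cast cells and 0.254% (0.205 to 0.311) in XX cells.

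The 3 nearest genes on each side of Nr0b1 averaging 5 counts or more were over 7 Mb away, Dkc1, Brcc3, Vbp1, Pola1, Pcyt1b and Pdk3. Their log2 folds were -0.83 to 0.70 on the Cast allele and -0.99 to 0.91 on the Mus allele, with 0 of 6 past 1 on either. Around Pim2 these genes were 11.1 to 150.1 kb away, Wdr45, Praf2, Tfe3, Pqbp1, Timm17b and Eras. Their Cast folds ranged from -1.91 for Wdr45 to 1.11 for Tfe3, a transcription factor of the exit from pluripotency, and the 4 with enough Mus counts lay between 0.13 and 0.88. Eras, a Ras protein of embryonic stem cells 40.8 kb from Pim2, had 0.11 on Cast and 0.88 on Mus.

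In cells with both X chromosomes, Nr0b1 was mostly counted from both alleles. Of the 23 XX cells, 17 had counts from both, 2 from Cast alone, 2 from Mus alone and 2 from neither. The Mus share of all Nr0b1 counts was 55.8% (95% Clopper-Pearson interval 53.5 to 58.1). For comparison, the Mus share per cell had a median of 42.5% over autosomal genes and 53.6% over X-linked genes. The pooled share hides a wide spread, since Mus exceeded Cast in 10 cells and Cast exceeded Mus in 11, with a median over cells of 49.3%. Cells with more Nr0b1 from an allele tended to have more from the other, with a Spearman rank correlation of 0.47 over the 23 cells and Pearson's r of 0.52 for log values. The rank correlation was 0.38 without the 2 cells farthest from the median. These points share a library for both alleles.

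Pim2 was more often counted from a single allele. Both alleles were counted in 7 of the 23 cells, Cast alone in 5, Mus alone in 4 and neither in 7. Its Mus share was 34.7% (26.99 to 43.1) of 144 counts, and the mean of the shares of cells was 47.2%, so the pooled share leaned on the cells with most counts. The rank correlation between alleles was 0.23, and 0.46 without the 2 cells farthest from the median. With so few counts a cell with counts from 1 allele cannot be told apart from a cell in which the other was missed. After every cell was thinned to the depth of the shallowest, both alleles were counted in 5 cells for Pim2 and in 17 for Nr0b1.

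**Figure D3:**
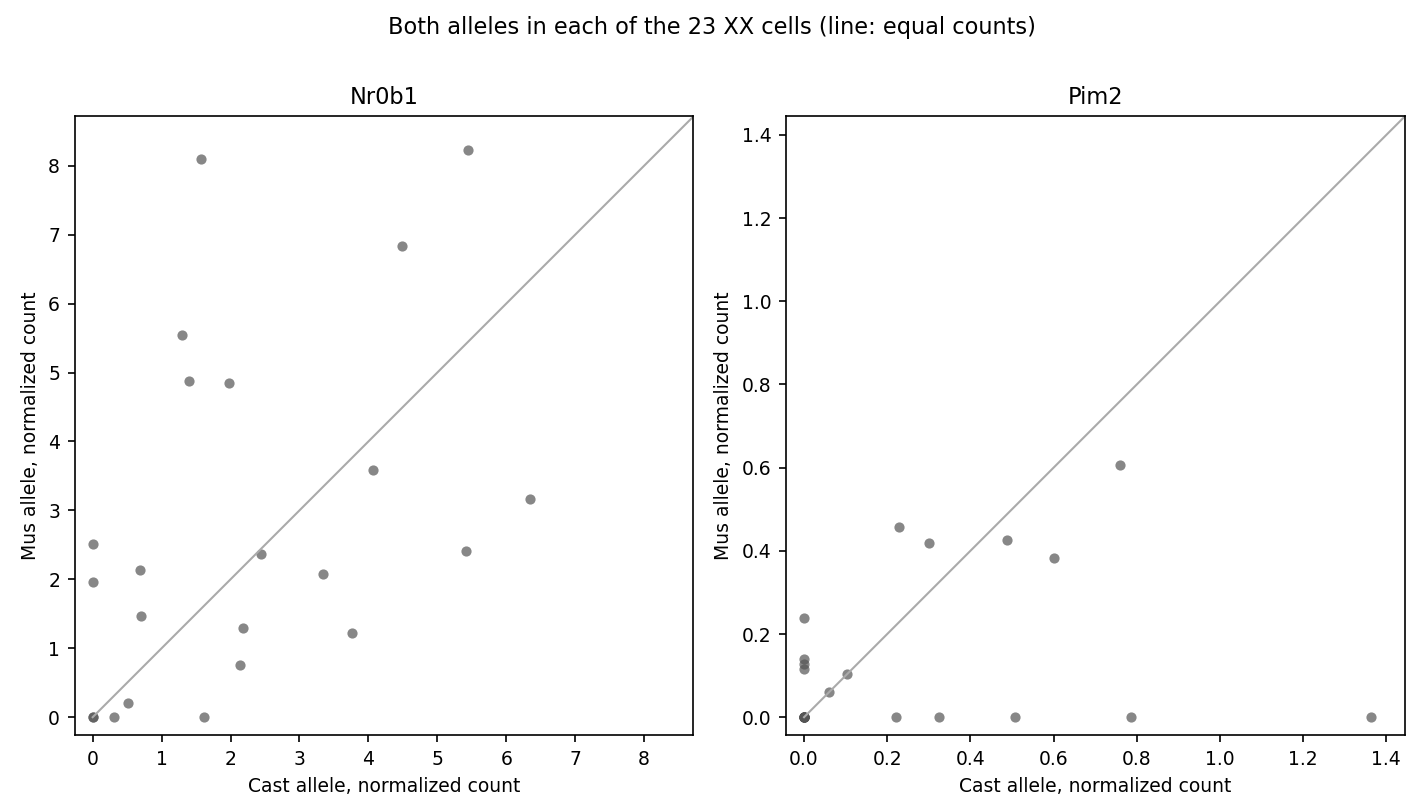
Cast against Mus normalized counts of Nr0b1 (left) and Pim2 (right) in the 23 XX cells, with each point a cell and the line marking equal counts. For Nr0b1 17 cells lie off both axes, for Pim2 7.

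Counts of both genes spread over cells far more than counting error gives. The coefficient of variation of the sum of alleles for Nr0b1 was 0.771 in XX, 0.591 in XO-Cast and 0.970 in XO-Mus cells, where Poisson counts of the same means would give 0.111, 0.0883 and 0.105. For Pim2 it was 1.16, 0.923 and 1.46, against 0.400, 0.275 and 0.242. Amplified reads without molecular identifiers are not independent molecules, so the Poisson values are a lower limit of the technical spread. Thinning moved these values by little, to 0.795, 0.551 and 1.00 for Nr0b1 and 1.23, 0.973 and 1.38 for Pim2. Depth did not follow either gene closely in XX cells, with rank correlations of 0.06 for Nr0b1 and 0.11 for Pim2. In XO-Cast cells Pim2 and depth had a rank correlation of -0.47.

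The autosomal genes that act with Nr0b1 and Pim2 in pluripotent cells were compared by the sum of alleles, from gene lists chosen with earlier results of these data known. Both single-X classes are set against the same XX cells, and of all genes 6.79% were past a log2 fold of 1 and 6.33% below -1 in XO-Cast cells, and 8.64% and 10.3% in XO-Mus cells. Of 14 pluripotency transcription factors with enough counts in XO-Cast cells, 5 were higher and 9 lower, with a median log2 fold of -0.23 beside 0.01 over all genes. Of 13 in XO-Mus cells, 4 were higher and 9 lower, with a median of -0.54 beside 0.02. With a minimum of 1 count, 8 of 17 were higher and 9 lower in each class, where 51.6% and 49.8% of all genes were higher. Below -1 were 4 of 14 and 6 of 13.

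Nanog, a homeodomain factor of naive pluripotency, was among them, with log2 folds of -1.14 and -1.26 in XO-Cast and XO-Mus cells. Prdm14, a repressor of primed genes, gave -1.23 and -1.90, and the Krüppel-like factor Klf5 gave -1.55 and -1.13. Oct4, encoded by Pou5f1, gave -0.17 and 0.35, and Esrrb, an orphan nuclear receptor of naive cells, gave 0.58 and -0.17. Nr5a2, a nuclear receptor of the group that NR0B1 represses, gave 1.07 and 0.13.

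Of the 18 other pluripotency-associated genes, 7 were higher and 11 lower in XO-Cast cells, and 10 were higher and 8 lower in XO-Mus cells, with medians of -0.20 and 0.09, where 51.3% of all genes were higher in each and their medians were 0.01 and 0.02. Lin28a, an RNA-binding protein that blocks let-7, gave 1.24 and 0.74, and Tcl1, a coactivator of the kinase AKT, gave -1.34 and -1.82. Genes of both lists lay on both sides of 0.

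The LIF pathway leads to the Pim family. Of the 10 listed genes that were measured, 5 had enough counts, and 5 of 5 had sums above those of XX cells in each single-X class, with medians of 0.11 and 0.35, where 51.3% of all genes were higher in each. With a minimum of 1 count, 6 and 7 of 9 were higher, where 51.6% and 49.8% of all genes were higher. At that minimum Jak1, Socs3 and Bcl3 gave -0.88, -0.92 and -0.74 in XO-Cast cells. The receptor gene Lifr gave 0.54 and 0.16 and its partner Il6st 0.11 and 0.25. The transcription factor gene Stat3 gave 0.02 and 0.87, and its target Junb 0.97 and 1.01. Pim1, the autosomal paralog of Pim2, gave 0.03 and 0.35.

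Among genes of PIM substrates, Eif4ebp1, a translation inhibitor, gave -0.28 and -0.03, and Cdkn1a, a cell cycle inhibitor, gave -0.51 and -0.38. Counted with Pim1, 1 of 3 genes was higher and 2 lower in each class. Of 5 partners and relatives of NR0B1 with enough counts, 2 were higher and 3 lower in each class. The corepressor gene Ncor1 gave -0.54 and -0.42 and the coactivator gene Ncoa1 gave -2.40 and -0.42.

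Of the 14 other X-linked genes of stem cells and differentiation in the table, 7 had enough counts for the sum in XO-Cast cells and 8 in XO-Mus cells. Their sums were lower in 5 of 7 and 7 of 8, with medians of -0.29 and -0.43, where 101 of 111 and 105 of 118 of all X-linked genes were lower, with the medians of -0.82 and -0.84 given above. On the single allele, 5 of 5 were higher on Cast and 4 of 5 on Mus, where 65.2% and 61.2% of all X-linked genes were higher, with medians of 0.18 and 0.13. Rlim, the ubiquitin ligase that activates Xist, gave 1.13 on Cast and 0.68 on Mus, and its sum gave 0.00 and -0.20. Dnmt3b, the only primed marker with enough counts, had sums of 0.14 and 0.91, and Vim, the only such fibroblast gene, 1.37 and -0.40. The summed fibroblast markers were 0 to 3.48 in XX, 0 to 9.14 in XO-Cast and 0 to 4.05 in XO-Mus cells, and those of primed or early lineages 0.477 to 3.63, 0 to 5.68 and 0.0942 to 11.7. The part of cells with such markers in the values of Nr0b1 and Pim2 was not tested. None of the 7 listed markers of 2-cell-like cells were in the table.

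Co-variation over cells was measured with Spearman's rank correlation between sums of alleles, separately in each class, as a description of cells that share a plate and a library preparation. Of the autosomal pluripotency genes, 32 averaged 5 counts or more. In the 23 XX cells, the rank correlation with Nr0b1 was above 0 for 16 and below 0 for 16, with a median of 0.01, and 95% of 4031 autosomal genes lay between -0.43 and 0.44. Outside that range were 3 of the 32. The median over the list was 0.03 in XO-Cast cells and 0.11 in XO-Mus cells, where 19 were above 0 and 12 below.

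Nanog gave the lowest rank correlation with Nr0b1 of the 32 genes in XX cells, -0.57. It gave -0.44 in XO-Cast and -0.15 in XO-Mus cells, both inside the central 95% of autosomal genes of those classes, -0.48 to 0.52 and -0.61 to 0.67. Nanog itself had normalized counts of 0.898, 2.87 and 7.96 at the lowest, median and highest of XX cells, 0, 1.49 and 3.23 in XO-Cast and 0.111, 1.12 and 2.73 in XO-Mus cells. Of the 23 XX cells, 2 were above the median for both genes, 9 for Nr0b1 alone, 9 for Nanog alone and 3 for neither. In XX cells Pearson's r of log values was -0.53, and the rank correlation was -0.55 without the 2 cells farthest from the Nr0b1 median and -0.61 after thinning.

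**Figure D4:**
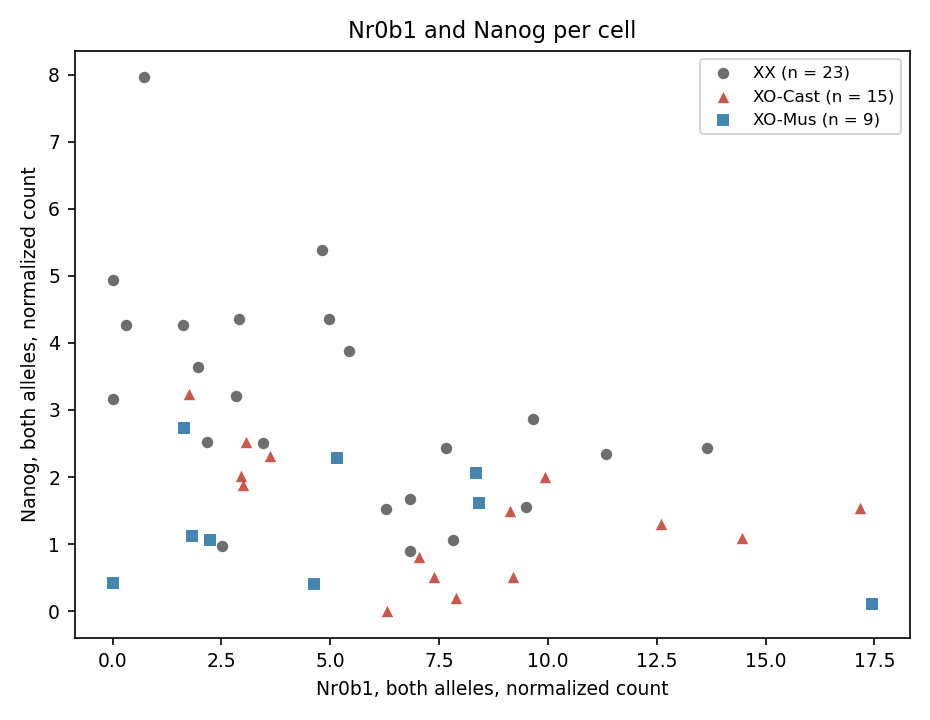
Normalized count of Nanog (vertical) against Nr0b1 (horizontal), sums of alleles, with each point a cell and the shape its class. The rank correlation was -0.57 in XX cells, outside the central 95% of autosomal genes in that class. It was -0.44 in XO-Cast and -0.15 in XO-Mus cells, each inside the central 95% of its own class.

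At the other end, Dppa2, a chromatin protein of early embryos, had a rank correlation of 0.58 with Nr0b1 in XX cells but 0.08 and -0.24 in the single-X classes. The remaining gene outside the range was Tet1, a methylcytosine dioxygenase, with -0.43 in XX cells and 0.10 in each of the others. Lin28a gave 0.38, 0.70 and -0.09 and the RNA-binding protein gene L1td1 gave 0.25, 0.62 and -0.22 in XX, XO-Cast and XO-Mus cells. Oct4, Sox2 and Esrrb gave 0.10, -0.18 and 0.13 in XX cells. Fgf4, a growth factor gene, gave -0.49 in the 15 XO-Cast cells and 0.88 in the 9 XO-Mus cells. For 15 of the 32 genes the sign was the same in XX cells and in single-X cells with class medians removed. With Pim2 it was the same for 19 of 32. The share over all autosomal genes was not computed, so neither count has a background.

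Pim2 had rank correlations above 0 with 17 of the 32 genes and below 0 with 15, with a median of 0.01 in XX cells. The highest were L1td1 at 0.49 and Dppa4 at 0.46, and the lowest was Tbx3, a T-box factor, at -0.34. In XO-Cast cells L1td1 gave -0.05 and Dppa4 -0.06, and there the lowest was Oct4 at -0.69 and the highest Tet1 at 0.53. Tet1 gave 0.03 in XX and 0.64 in XO-Mus cells, and Gdf3, a TGF-beta family ligand gene, gave 0.14, 0.50 and 0.59 in XX, XO-Cast and XO-Mus cells. Nanog gave -0.20, -0.38 and -0.57 over XX, XO-Cast and XO-Mus cells. The XO-Mus values of Tet1, Gdf3 and Nanog lay inside the range of that class. Pim2 counts are low, and a weak rank correlation between low counts has little weight. With Pim2, in XX, XO-Cast and XO-Mus cells, Stat3 gave -0.42, 0.03 and -0.31, Pim1 gave -0.16, 0.11 and 0.54, and Eif4ebp1 gave -0.44, 0.41 and -0.72, so the signs of these genes differed between classes. They also differed for Junb with 0.25, -0.09 and 0.42 and for Cdkn1a with -0.05, -0.23 and 0.34. Lifr gave -0.27, -0.39 and -0.12 and Il6st gave 0.17, 0.02 and 0.04, each with a single sign.

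Nr0b1 and Pim2 themselves hardly varied together, with rank correlations of 0.07 in XX, 0.24 in XO-Cast and 0.21 in XO-Mus cells. In XX cells 7 were above both medians, 4 above that of Nr0b1 alone, 4 above that of Pim2 alone and 8 above neither.

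**Figure D5:**
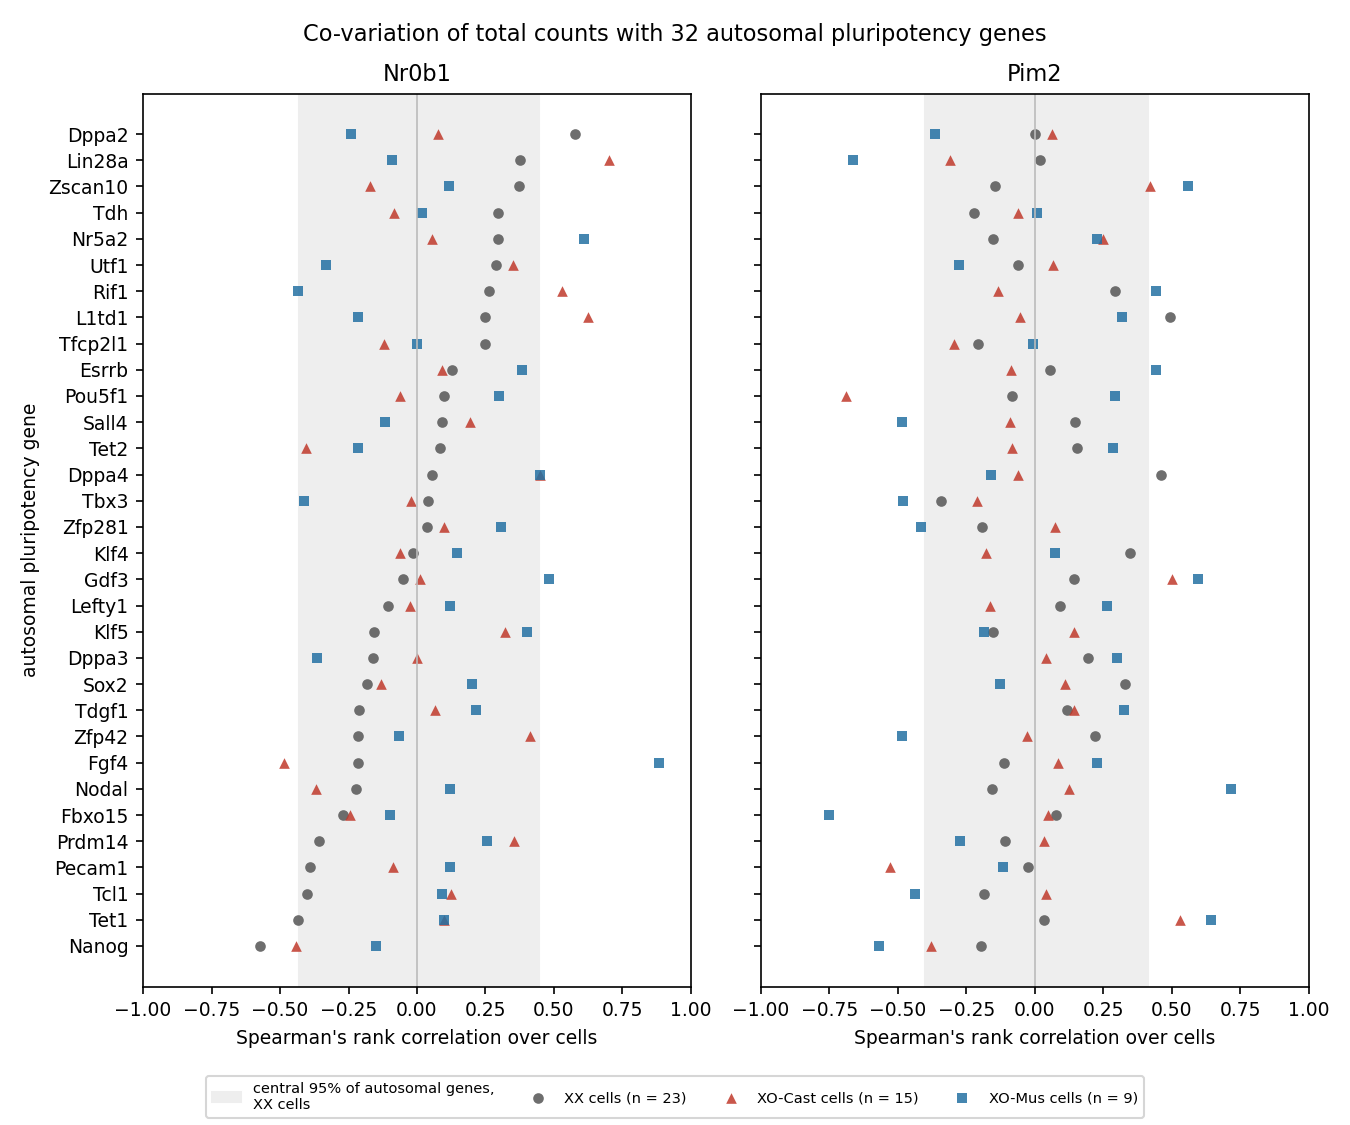
Spearman's rank correlation over cells between the sum of alleles of Nr0b1 (left) or Pim2 (right) and 32 autosomal pluripotency genes, ordered by rank correlation with Nr0b1 in XX cells. Symbols are the 3 classes and the grey band the central 95% of 4031 autosomal genes in XX cells, outside which lie 3 genes for Nr0b1 and 2 for Pim2.

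The autosomal genes most alike to Nr0b1 over the 23 XX cells, of those averaging 5 counts or more, were Odc1 with a rank correlation of 0.78, Ccne1 with 0.71, Zfp277 with 0.71, Srm with 0.70 and Nudt21 with 0.70. Odc1 and Srm encode the enzymes that make putrescine and spermidine, and Ccne1 encodes cyclin E1. For Pim2 they were Serf2 with 0.68, Adipor1 with 0.63, Sqle with 0.61, Hps1 with 0.59 and Akirin2 with 0.59. Being the highest of 4031 genes, these values are high by choice. In single-X cells with class medians removed, the rank correlation was 0.30 for both Odc1 and Nudt21, -0.12 for Ccne1, -0.01 for Zfp277 and -0.08 for Srm with Nr0b1, and between -0.23 and -0.07 for the 5 genes alike to Pim2.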

How the data were processed

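Single iPSCs of 1 plate went by FACS into a GpC methylase mix. Their polyadenylated RNA was separated on beads (G&T-seq), amplified, made into Nextera XT libraries and sequenced single end. The authors deposited whole-number counts per gene, allele and cell, not normalized. The submitters' processing notes name mm10, STAR 2.5.3a and SAMtools. For their other plate libraries the methods give a genome masked at SNPs, SNPsplit and counting at SNP positions, keeping genes with at least 4 SNPs. A read over several SNPs could then count more than once, and levels of different genes cannot be compared.

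From these counts, cell totals of 71682 to 216451 gave normalized counts per 10000. Folds are ratios of mean normalized counts for genes averaging 5 counts or more over the cells compared. A class at 0 was set to 3 counts. Poisson and Clopper-Pearson intervals (95%) cover counting error only. No test between classes was made, since the cells are of 1 plate and 1 label. scipy 1.17.1, pandas 2.3.3, numpy 2.4.6 and matplotlib 3.10.9 under Python 3.11.15 were used, with positions from GENCODE M21. The scripts were tested on simulated data. No pair of cells had identical counts (0 pairs).

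Nr0b1, Pim2 and all gene lists were chosen with earlier results of these data known. Other genes named are members of the lists, the 3 nearest genes per side, the next X-linked genes in rank, and the 5 autosomal genes with the highest rank correlation. Alternatives covered the normalization, the summary over cells, depth, the minimum count and the cells used.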

Additional observations from a re-analysis of the deposited data

Results flagged for a closer look

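The normalized count of Mus Nr0b1 in the 9 XO-Mus cells had 1 cell far from the others. That cell held 314 counts, a normalized count of 17.4, and its gap to the next cell was 0.518 of the range of the class, above Dixon's critical value for 9 cells. Its 10 counts of Pim2 were within the range of the class. The same ratio for Pim2 was 0.253. Chance alone passes this limit in about 1 in 20 groups of normally distributed values, which skewed counts of single cells are not, and Nr0b1 was chosen on these values, so the ratio is a description of 1 cell. Classes of over 10 cells were not examined this way.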

How the results depend on the processing

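Log2 folds on the Cast allele, comparing XO-Cast with XX cells, given here for Nr0b1 then Pim2, were 2.20 and 3.61 from medians over cells and 1.54 and 0.50 from the mean of the natural log of 1 plus the normalized count. That scale shrinks folds of values under 1, as most of Pim2. For the Mus allele in XO-Mus cells the log mean gave 0.68 and 0.57, and dividing by the autosomal total of the same allele gave 0.88 for Nr0b1. Pim2 had no fold from medians there, since its XX median is 0. The Pim2 sum of alleles gave 1.82 and 0.51 from medians and 0.37 and 0.32 from log means in XO-Cast and XO-Mus cells. The Nr0b1 sum in XO-Mus cells gave 0.0635 with the autosomal total, -0.0572 from medians and 0.0529 from log means. Plate rows A to D and E to H, an alternative chosen after seeing the data, gave Nr0b1 1.54 and 2.09 on Cast, 0.54 and 1.59 on Mus, 0.37 and 0.89 for the sum in XO-Cast, and -0.30 and 0.77 for the sum in XO-Mus cells. The cell of 314 counts is 1 of the 3 XO-Mus cells in rows E to H, and the cause of these shifts was not tested. Leaving out the shallowest cell, an XO-Mus cell, also chosen afterwards and run for the Mus folds and sums of XO-Mus cells, kept each of those 4 directions.

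Leaving out each cell in turn gave Nr0b1 folds of 1.70 to 1.96 on Cast, 0.54 to 1.17 on Mus, and 0.51 to 0.77 and -0.29 to 0.33 for the sums. For Pim2 it gave 1.47 to 2.06, 2.20 to 3.13, 0.85 to 1.29 and 0.68 to 1.54. The Mus share in XX cells ranged from 53.0% to 57.9% for Nr0b1 and from 31.8% to 40.98% for Pim2, and the mean of the shares of cells was 52.0% and 47.2%. With a minimum mean of 1 count, 24 of 191 X-linked genes (12.6%) exceeded a log2 fold of 1 on Cast, not 7 of 89. On Mus it was 31 of 197 (15.7%), not 4 of 85, where 15.3% and 18.0% of all genes exceeded 1 on Cast and Mus. Of the pluripotency factors, 8 of 17 had a higher sum in each single-X class, beside 51.6% and 49.8% of all genes.

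The median rank correlation with pluripotency genes, recomputed in XX cells only, was 0.01 for both genes, and for Nr0b1 it turned to -0.0046 for Pearson's r of log values, -0.028 with median-of-ratios size factors and -0.0047 after thinning. For Pim2 it turned to -0.0094 for Pearson's r and -0.032 without the 2 cells farthest from the median. No paired analysis was possible because all cells share 1 label group and carry no pairing number. Depth limits Pim2, with a median of 4 counts of both alleles in XX cells.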
